A study of Mus musculus with 10 samples.

Results

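The 10 genes described here encode the lipases that release fatty acids from stored triglyceride (Pnpla2, Lipe and Mgll), the activator and the inhibitor of the first lipase (Abhd5 and G0s2), and proteins that sit on the lipid droplet (Plin1, Plin2, Plin4, Plin5 and Cidec). They were chosen by name from this function and not by a cut on their values, though with earlier results of these data known. All 10 were found among the 33120 genes that can hold exon reads in the deposited tables. RNA-seq libraries were made from inguinal white adipose tissue (iWAT), a fat pad under the skin of the groin, of male C57BL/6 mice. The 4 groups had 1 library per mouse. F1-CD (n = 3) and F1-LPD (n = 3) were 5-week-old offspring whose fathers had eaten a control diet (CD) or a low-protein diet (LPD), with mothers on the CD, and F0-CD (n = 2) and F0-LPD (n = 2) were males fed these diets themselves and taken at 10 to 12 weeks of age. The colony had been kept on the CD beforehand, and the 3 mice of an offspring group came from different mothers. Whether they also had different fathers is not stated. F1 and F0 therefore differ in age as well as in who ate the diet. The first comparison asks what a paternal diet leaves in the fat of the offspring, the second what the diet does in the animal that eats it.

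Triglyceride in a fat cell is taken apart in steps. PNPLA2 (adipose triglyceride lipase) removes the first fatty acid and needs ABHD5 as coactivator, while G0S2 binds and inhibits it; LIPE (hormone-sensitive lipase) acts mainly on the diglyceride and MGLL on the monoglyceride. In the resting cell PLIN1, the main coat of white fat droplets, holds ABHD5 away from PNPLA2, and phosphorylation by protein kinase A, which beta-adrenergic hormones switch on through cyclic AMP, releases it and brings LIPE to the droplet.

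The levels below are exon reads per 1000000 (CPM) after TMM scaling of all 10 libraries together, which adjusts for the composition of a library, and RPKM, which also divides by exon length, wherever genes are compared with each other. Exon reads numbered 6351075 to 10044546 per library, so that 3 reads, the least that can be told from 0, correspond to 0.299 to 0.472 CPM, which covers the error of counting alone. Every member lay above it in every library, with Plin5 the lowest at 48 to 430 reads. Introns held 40.7% to 48.5% of the reads on protein-coding genes in F1-LPD libraries and 36.0% to 38.0% in the 7 other libraries, and F1-LPD replicate 1 had the lowest share of exon reads, 39.3%. F1-CD replicate 3 stood apart from its group, with a chi-square per degree of freedom over genes of 11.9 and 12.4 against its group mates, which differed from each other by 4.45, and without it 510 genes passed in F1 in place of 164. The defining adipocyte markers were high in all libraries, with Adipoq at 1168 to 2368 CPM and Fabp4 at 4655 to 7607 CPM.

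The proximal promoters of the 3 genes that passed the edgeR test on exon reads in either generation are shown. Not passing does not show that the other members were unchanged. All 10 members matched the RefSeq promoter table (GRCm38.p6, the assembly also called mm10), 4 of them with more than 1 start. The 250 bases before the start were searched on both strands for 6 short motifs, namely AGGTCA (the core bound by nuclear receptors such as the PPARs), the E-box CACGTG, the CCAAT box, the GC box GGGCGG, the TGACG core of the cyclic AMP element, and the TATA box in its form TATAAA. Capitals mark every match, and a match on the other strand is printed as its reverse complement. Plin5 (upstream of the more distal of its pair of starts, minus strand, chr17:56117549-56117798), G0s2 (minus strand, chr1:193273189-193273438) and Abhd5 (plus strand, chr9:122351366-122351615) read, from 5′ to 3′:
Plin5: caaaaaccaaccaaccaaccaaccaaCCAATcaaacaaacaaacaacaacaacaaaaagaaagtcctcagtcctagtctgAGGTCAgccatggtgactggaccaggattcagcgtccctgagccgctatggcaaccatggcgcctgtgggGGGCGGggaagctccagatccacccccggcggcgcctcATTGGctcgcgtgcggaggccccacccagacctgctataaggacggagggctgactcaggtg
G0s2: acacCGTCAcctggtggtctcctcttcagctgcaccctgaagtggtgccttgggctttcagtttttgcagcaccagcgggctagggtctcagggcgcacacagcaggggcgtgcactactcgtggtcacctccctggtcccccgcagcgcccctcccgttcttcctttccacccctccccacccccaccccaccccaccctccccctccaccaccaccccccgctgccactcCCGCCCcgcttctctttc
Abhd5: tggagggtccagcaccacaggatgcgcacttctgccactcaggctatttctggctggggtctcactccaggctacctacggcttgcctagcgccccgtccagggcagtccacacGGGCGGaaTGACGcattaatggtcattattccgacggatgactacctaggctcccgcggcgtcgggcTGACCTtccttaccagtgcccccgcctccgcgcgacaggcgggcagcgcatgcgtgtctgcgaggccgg
Plin5 held 1 AGGTCA, 170 bases before the start, and Abhd5 held 1 on the other strand, 69 bases before the start. The G0s2 window held none. Of the 14 promoters of the members, 3 contained this core, the other being that of Plin2, against 14.0% of all 32851 promoters in the table, and in none of the 14 were 2 such cores in the same direction 1 base apart. G0s2 and Abhd5 each held a TGACG, which 17.8% of all promoters contain, and each of the 3 printed windows held a GGGCGG, found in 32.7%. These are matches of letters only. CACGTG, found in 6.02% of promoters, occurred in single windows of Lipe and Mgll, CCAAT (33.8%) in those of Plin2, Plin4 and Plin5, and TATAAA (12.4%) in none of the members.

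In pLPD offspring, 1 of the 10 members passed an adjusted p of 0.05, Abhd5, which was lower, where 1.17% of all 14049 genes tested passed in either direction. The members did not move one way: 4 had a positive and 6 a negative log2 fold change, with a median of -0.08 against 0.01 for all genes. In LPD-fed males 2 members passed, Plin5 and G0s2, both higher, where 2.50% of 14581 genes passed. There 9 of 10 fold changes were positive, with a median of 0.36 on the log2 scale against 0.00 for all genes. Without F0-LPD replicate 2, 7 of 10 were positive and the median was 0.17, and in F1 the median was 0.11, with 6 of 10 positive, without F1-CD replicate 3. The difference between the generations, tested by an interaction term in a fit of all 10 libraries, passed for Plin5, 1 of 10 members, where 1.25% of 15111 genes passed. The groups did not overlap for 4 members in F1, where 20.1% of all genes were separated in this way, and for 6 members in F0, where groups of 2 left 46.5% of all genes without overlap. For a single gene, permuting 3 against 3 mice allows no exact p under 0.1, and 2 against 2 none under 0.333. The calls therefore rest on edgeR's quasi-likelihood test, which shares its estimate of the spread across genes. In such tissue fewer cells of a type and less RNA per cell cannot be told apart.

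**Figure D1:**
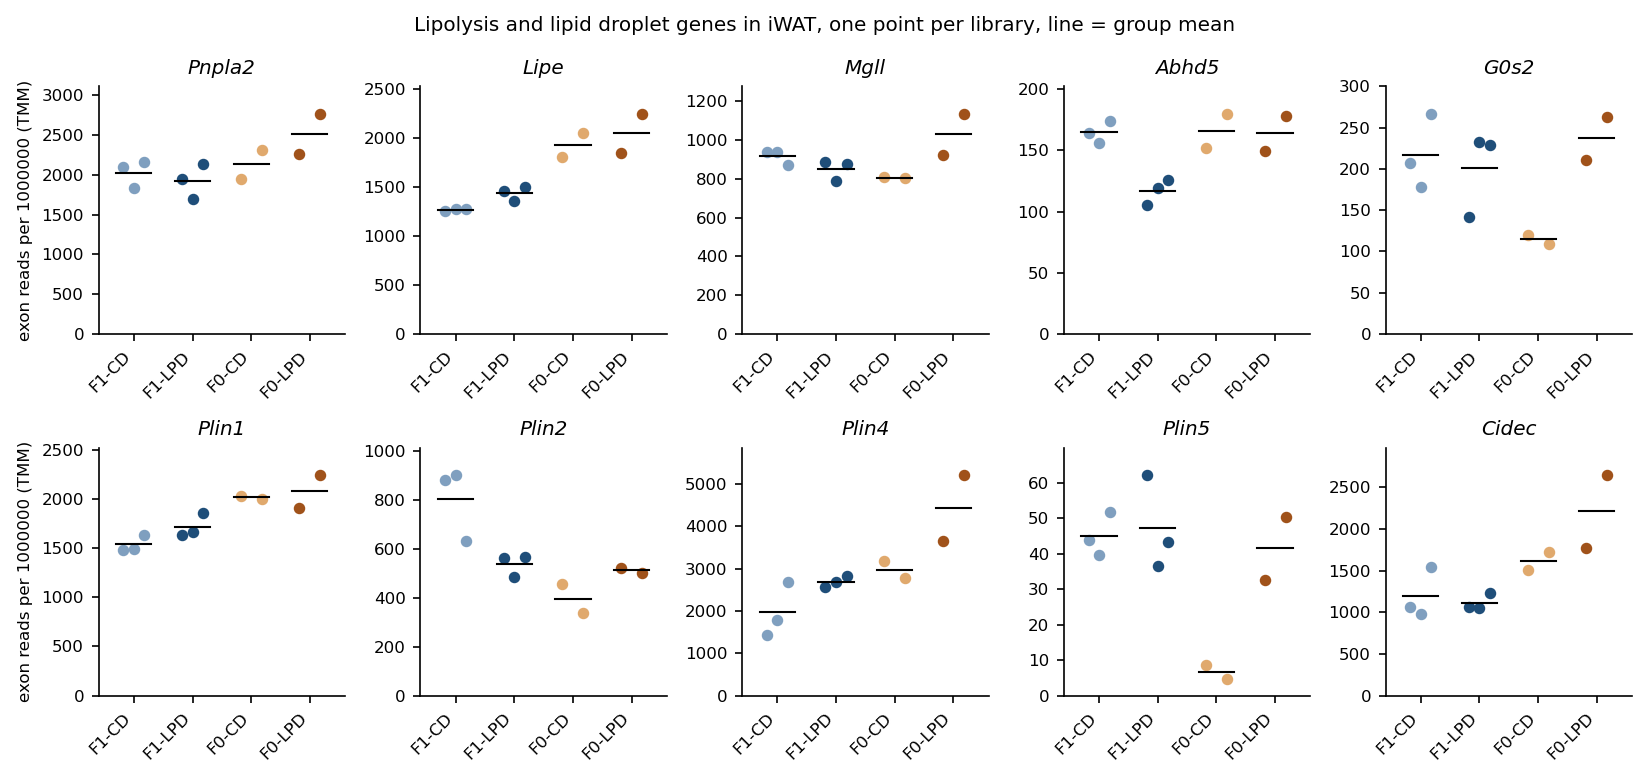
Exon reads per 1000000 (TMM-scaled, linear axes from 0) of each of the 10 genes in the 4 groups, 1 point per library and a line at the group mean. Plin5 sits between 4.80 and 8.73 in F0-CD and between 32.7 and 62.2 in all other libraries, and the 3 F1-LPD libraries hold the lowest Abhd5 levels, 105 to 126.

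**Figure D2:**
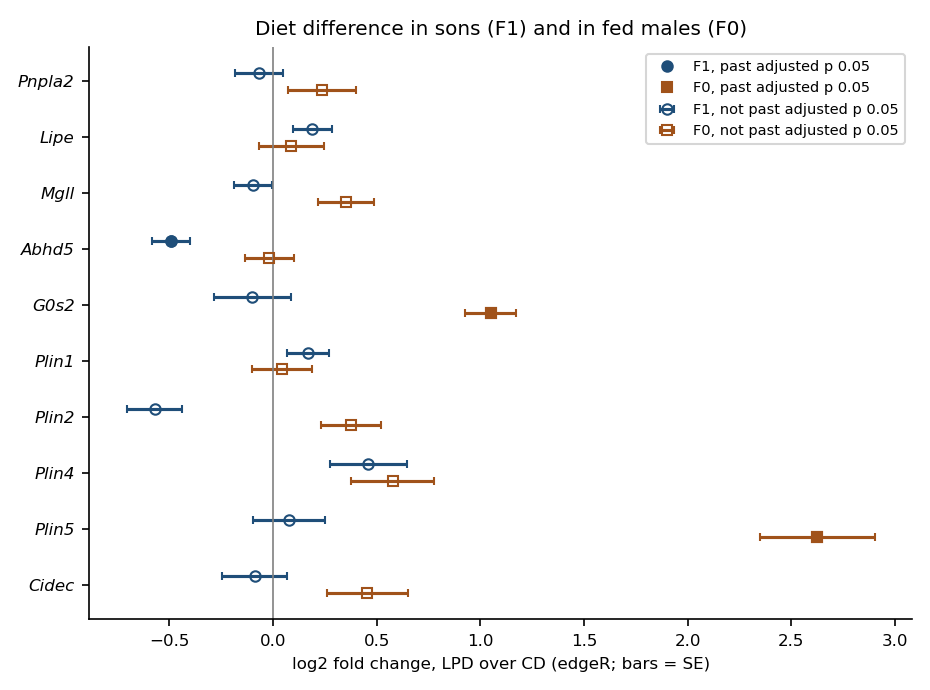
Log2 fold change of LPD over CD for each gene in offspring (circles) and in fed males (squares), with the standard error of the edgeR fit, and filled symbols for an adjusted p under 0.05. Abhd5 is the only filled circle, at -0.49, and Plin5 and G0s2 are the only filled squares, at 2.63 and 1.05.

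None of the 3 lipases passed the test in either generation. Pnpla2 (chr7:141455198-141460743, plus strand) was at 2097, 1830 and 2153 CPM in F1-CD and at 1941, 1693 and 2128 CPM in F1-LPD. In F0 it was at 1952 and 2306 CPM on the CD and at 2256 and 2767 CPM on the LPD. The groups overlapped in both generations, with log2 fold changes of -0.07 ± 0.12 (SE) in F1 and 0.24 ± 0.16 in F0 and adjusted p-values of 0.832 and 0.559. Lipe (chr7:25379527-25398710, minus strand) was at 1261, 1282 and 1275 CPM in F1-CD and at 1465, 1357 and 1507 CPM in F1-LPD, without overlap. This difference, 0.19 ± 0.09 on the log2 scale, did not pass the test (adjusted p = 0.366). In F0, Lipe was at 1806 and 2050 CPM on the CD and 1847 and 2253 CPM on the LPD, which overlapped (log2 fold change 0.09 ± 0.16, adjusted p = 0.855). Lipe lies inside an antisense gene, 4732471J01Rik, with which it shares 918 of its 5886 exon bases in GENCODE M21, and 42.9% to 50.7% of its exon reads were counted as unique. On unique reads alone the F1 difference was 0.31 (adjusted p = 0.131).

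Mgll (chr6:88724412-88828360, plus strand), the lipase of the last step, was at 938, 935 and 871 CPM in F1-CD and 886, 789 and 877 CPM in F1-LPD, which overlapped (log2 fold change -0.10 ± 0.09, adjusted p = 0.675). In F0 it was at 809 and 802 CPM on the CD and at 922 and 1135 CPM on the LPD. Both LPD-fed males were above both CD-fed males, but the log2 fold change of 0.35 ± 0.13 had an adjusted p of 0.241, with 0.49 without F0-LPD replicate 1 (adjusted p = 0.0428) and 0.20 without F0-LPD replicate 2 (adjusted p = 0.557). No lipase passed the test of a difference between the generations, and the interaction closest to it, that of Mgll, was -0.46 ± 0.15 (log2, F1 difference minus F0 difference, adjusted p = 0.196).

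Of the partners of PNPLA2, Abhd5 passed the test on exon reads in F1 and G0s2 in F0. Abhd5 (chr9:122351608-122381524, plus strand), the coactivator, was at 164, 156 and 174 CPM in F1-CD and at 105, 119 and 126 CPM in F1-LPD. All 3 pLPD offspring were below all 3 offspring of CD fathers, and Abhd5 was down-regulated by 0.49 ± 0.09 on the log2 scale, a level 0.712 times that of F1-CD (adjusted p = 0.0347). The call was lost without F1-CD replicate 1 (adjusted p = 0.145), F1-CD replicate 2 (0.113), F1-LPD replicate 1 (0.0863) or F1-LPD replicate 2 (0.131), with log2 fold changes of -0.55 to -0.42 over all 6 omissions. In F0 the exon reads of Abhd5 overlapped, at 152 and 180 CPM on the CD and 150 and 178 CPM on the LPD (log2 fold change -0.02 ± 0.12, adjusted p = 0.971). The difference between the generations was -0.48 ± 0.16 on the log2 scale and did not pass (adjusted p = 0.180). Abhd5 overlaps the antisense gene A730085K08Rik at its 3′ end, with 950 exon bases in common in GENCODE M21, and 79.6% to 83.7% of its exon reads were counted as unique; on these alone the F1 difference was -0.49 (adjusted p = 0.0237). Per length, Abhd5 stood at 0.0651 to 0.0708 of Pnpla2 in F1-CD and at 0.0450 to 0.0584 in F1-LPD, and at 0.0646 to 0.0649 in F0-CD and 0.0535 to 0.0552 in F0-LPD. These RPKM ratios did not overlap between the diets in either generation, with exact permutation p-values of 0.1 and 0.333, the smallest possible, and 0.4 and 0.444 after adjustment over the 8 tests of 4 ratios.

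G0s2 (chr1:193272161-193273217, minus strand), the inhibitor, was at 120 and 109 CPM in F0-CD and at 211 and 263 CPM in F0-LPD. Both LPD-fed males lay above both CD-fed males, and G0s2 was up-regulated 2.07-fold, 1.05 ± 0.12 on the log2 scale (adjusted p = 0.00669). Each of the 4 omissions of 1 mouse kept the call, with log2 fold changes of at least 0.88, whereas limma on log2 RPKM gave adjusted p-values of 0.0512 and 0.0603. In F1 it was at 207, 178 and 267 CPM after the paternal CD and at 142, 233 and 229 CPM after the paternal LPD. The groups overlapped (log2 fold change -0.10 ± 0.19, adjusted p = 0.851), and the difference between the generations, -1.16 ± 0.29, had an adjusted p of 0.0684. With the replicate block it passed, at 0.0395. G0s2 lies inside Lamb3 on the opposite strand and shares none of its 871 exon bases with the exons of that gene in GENCODE M21, yet 5.04% to 8.53% of its exon reads, 65 to 149 per library, were counted as unique. On unique reads alone the F0 difference was 0.99 (adjusted p = 0.0174). The RPKM ratio of Pnpla2 to G0s2 was 4.68 and 6.12 in F0-CD and 3.03 and 3.09 in F0-LPD, and 2.33 to 2.97 in F1-CD against 2.10 to 3.95 in F1-LPD.

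In F0, Plin5 differed most of the 4 perilipins. PLIN5 coats droplets in tissues that burn fat, such as heart, skeletal muscle and brown fat, and brings PNPLA2, ABHD5 and mitochondria to them. Plin5 (chr17:56111601-56117596, minus strand) was at 8.73 and 4.80 CPM in F0-CD and at 32.7 and 50.3 CPM in F0-LPD, from 78 and 48 reads against 311 and 430. It was up-regulated 6.18-fold, 2.63 ± 0.28 on the log2 scale (adjusted p = 0.00501), and 2.24 to 3.10 when 1 mouse was left out. In F1 it was at 43.7, 39.7 and 51.7 CPM after the paternal CD and at 62.2, 36.5 and 43.2 CPM after the paternal LPD, which overlapped (log2 fold change 0.08 ± 0.17, adjusted p = 0.877). The difference between the generations was -2.56 ± 0.38 on the log2 scale (adjusted p = 0.00884), and without F0-CD replicate 2 it was -2.17 (adjusted p = 0.0735). The F0-LPD and F1 libraries overlapped in level, and the 2 F0-CD libraries alone lay below 10 CPM. Generation, age and the set of libraries coincide, so they cannot be told apart in this comparison.

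Plin2 (chr4:86648386-86670060, minus strand), a coat of small droplets in most cell types whose protein is stabilised by lipid, had fold changes of opposite sign in the 2 generations, neither past the test. It was at 881, 901 and 629 CPM in F1-CD and at 561, 484 and 567 CPM in F1-LPD. The groups did not overlap, with F1-CD replicate 3 nearer to the LPD mice than to its own group, and the log2 fold change of -0.57 ± 0.13 had an adjusted p of 0.0680. Without F1-CD replicate 3 it was -0.72 (adjusted p = 0.00264), without F1-CD replicate 2 -0.48 (adjusted p = 0.279), and DESeq2 on all 6 libraries gave -0.57 (adjusted p = 0.00139). In F0, Plin2 was at 455 and 336 CPM on the CD and at 523 and 502 CPM on the LPD, again without overlap but with LPD above (log2 fold change 0.38 ± 0.15, adjusted p = 0.250, and 0.0168 with the replicate block). That difference was 0.61 without F0-CD replicate 1 and 0.17 without F0-CD replicate 2, with adjusted p-values of 0.118 and 0.793. The interaction was -0.95 ± 0.23 with an adjusted p of 0.0603, and it passed on unique exon reads (0.0440), in DESeq2 (0.00200) and without F1-CD replicate 3 (0.00996), while without F0-CD replicate 2 it was -0.75 (adjusted p = 0.315).

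Plin1 (chr7:79720218-79732903, minus strand) was at 1484, 1494 and 1632 CPM in F1-CD and at 1637, 1660 and 1859 CPM in F1-LPD. The lowest pLPD offspring lay just above the highest offspring of a CD father, and the log2 fold change of 0.17 ± 0.10 did not pass (adjusted p = 0.464). In F0 it was at 2034 and 2001 CPM on the CD and 1912 and 2242 CPM on the LPD, with overlap (log2 fold change 0.04 ± 0.14, adjusted p = 0.936). Plin4 (chr17:56100591-56109803, minus strand), the neighbour of Plin5 on the chromosome and a coat of nascent droplets in white fat, was at 1440, 1783 and 2678 CPM in F1-CD and 2569, 2682 and 2812 CPM in F1-LPD. F1-CD replicate 3 reached the LPD range, and the log2 fold change was 0.46 ± 0.19 (adjusted p = 0.270), or 0.75 without that library (adjusted p = 0.00637) and 0.28 without F1-CD replicate 1 (adjusted p = 0.595). In F0, Plin4 was at 3169 and 2771 CPM on the CD and at 3655 and 5206 CPM on the LPD, without overlap (log2 fold change 0.58 ± 0.20, adjusted p = 0.191). It passed in F0 with the replicate block (0.0365), in DESeq2 (0.0114) and without F0-LPD replicate 1 (0.81, adjusted p = 0.0101), but without F0-LPD replicate 2 it was 0.30 (adjusted p = 0.385), and the fit of all 4 groups gave an adjusted p of 0.359.

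Within each library the other coats were set against Plin1. Plin2 was 0.511 to 0.798 of Plin1 by RPKM in F1-CD and 0.386 to 0.454 in F1-LPD, while in F0 it was 0.222 and 0.296 on the CD and 0.297 and 0.362 on the LPD. Plin5 was 0.00534 and 0.00956 of Plin1 in F0-CD and 0.0381 and 0.05 in F0-LPD, against 0.0490 to 0.0846 over the 6 offspring. Of the summed RPKM of Plin1, Plin2, Plin4 and Plin5, Plin2 made up 25.3% ± 6.67 (SD, n = 3) in F1-CD and 15.1% ± 1.04 (SD, n = 3) in F1-LPD. Plin4 made up 36.4% ± 8.18 and 46.1% ± 1.30 in the same groups, and F1-CD replicate 3, at 45.5%, was within the F1-LPD range of 45.1% to 47.5%. Plin1 held between 31.1% and 42.7% in all 10 libraries.

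**Figure D3:**
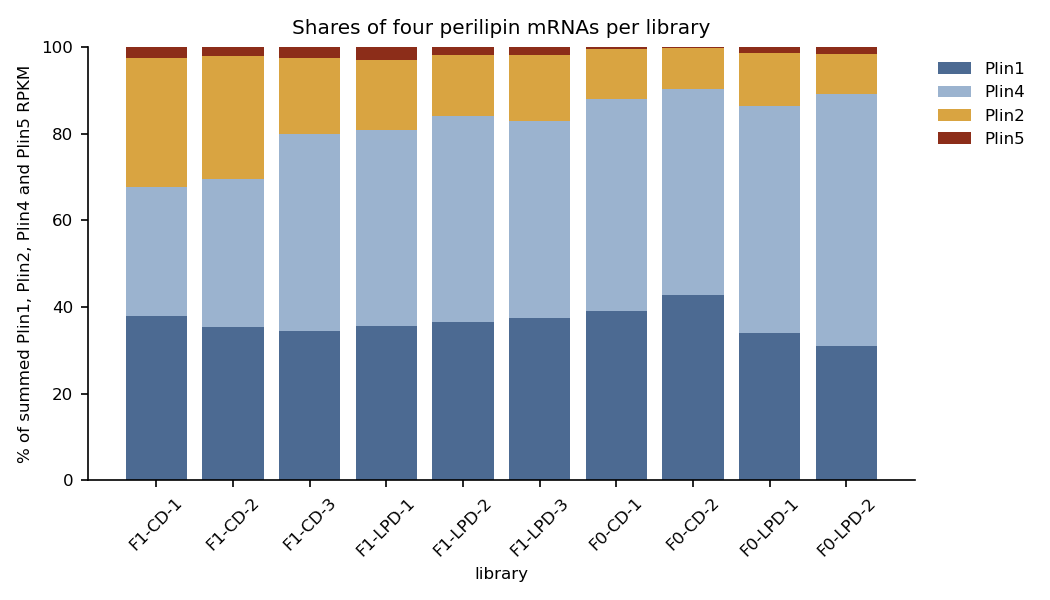
Shares of Plin1, Plin4, Plin2 and Plin5 in their summed RPKM, 1 bar per library. Plin2 takes 17.6% to 29.8% in F1-CD and 14.1% to 16.2% in F1-LPD, and Plin5 takes 0.228% and 0.374% in F0-CD against 1.30% and 1.55% in F0-LPD.

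Cidec (chr6:113424634-113435760, minus strand), which joins droplets into the single large one of white fat, was at 1062, 975 and 1543 CPM in F1-CD and at 1063, 1055 and 1227 CPM in F1-LPD. These overlapped, and the log2 fold change was -0.09 ± 0.16 (adjusted p = 0.841). In F0 it was at 1508 and 1720 CPM on the CD and 1776 and 2648 CPM on the LPD, with both LPD mice above, and 0.45 ± 0.20 on the log2 scale did not pass (adjusted p = 0.304). Leaving out F0-LPD replicate 1, the lower of the 2 LPD mice, raised this to 0.71 (adjusted p = 0.0169), and leaving out F0-LPD replicate 2 lowered it to 0.14 (adjusted p = 0.756). F0-LPD replicate 1 had the lower level of 9 of the members in its group, all except Plin2.

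Per length, Pnpla2 and Cidec had the highest means of the members in every group and Plin5 the lowest. In F0-LPD the libraries of Pnpla2 (373.5 and 470.1 RPKM) overlapped with those of Plin4 (316.3 and 462.4 RPKM). In F1-CD, Pnpla2 stood at 324 ± 31.4 RPKM (SD, n = 3) and Cidec at 311 ± 89.5 RPKM, whose libraries overlapped, followed by Plin4 at 165 ± 59.4, Plin1 at 160 ± 13.9, G0s2 at 121 ± 28.5, Plin2 at 110 ± 18.2 and Lipe at 104 ± 4.33 RPKM. Each of these neighbours overlapped with the next, apart from Cidec and Plin4. Mgll at 86.8 ± 1.93, Abhd5 at 21.9 ± 1.77 and Plin5 at 10.4 ± 1.70 RPKM were separated from each other and from those above. In F1-LPD, Plin2 at 66.3 ± 4.66 RPKM stood behind Mgll at 72.6 ± 3.80 RPKM, with overlap, and the libraries of Abhd5 at 14.0 ± 2.19 and Plin5 at 9.69 ± 1.90 RPKM overlapped too. In F0-CD, Cidec led with 458 ± 49.2 RPKM (SD, n = 2) and Plin5 stood at 1.70 ± 0.678 RPKM. G0s2 at 69.2 ± 3.97 RPKM lay below Mgll at 83.6 ± 0.726 RPKM in that group, and in F0-LPD it lay above, at 138 ± 24.2 against 103 ± 16.9 RPKM.

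Reads on introns, which come largely from RNA not yet spliced, were deposited beside the exon reads, and comparing them was chosen after seeing the data. In F0, 5 of the 10 members passed on intron reads, where 3.48% of 14334 genes passed, and in F1 none did, where 0.424% of 13456 genes passed. Abhd5 had 1297 and 1448 intron reads in F0-CD and 401 and 365 in F0-LPD, a level 3.36-fold lower (log2 fold change -1.75 ± 0.08, adjusted p = 2.5e-05), while its exon reads overlapped. Introns thus held 48.9% and 44.6% of the reads on the gene in F0-CD, 21.9% and 19.3% in F0-LPD, and at most 35.7% in the 6 offspring. F0-CD stood above all other libraries in this share. On the whole gene, exons and introns together, Abhd5 was lower by 0.57 on the log2 scale in F0-LPD (adjusted p = 0.0457). Pnpla2 had 395 and 442 intron reads in F0-CD and 261 and 255 in F0-LPD (log2 fold change -0.60 ± 0.10, adjusted p = 0.0141), again with exon reads that did not pass and whose estimate was positive. For these 2 genes the difference between the intron and the exon fold change was itself not tested.

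The other 3 members that passed on introns were higher in F0-LPD, in the direction of their exon reads. Plin2 had 437 and 361 intron reads on the CD and 666 and 646 on the LPD (log2 fold change 0.81 ± 0.13, adjusted p = 0.00848). Plin4 was higher by 0.70 ± 0.14 on the log2 scale (adjusted p = 0.0259) and Cidec by 0.87 ± 0.18 (adjusted p = 0.0272). Plin5 had only 23 to 24 intron reads in F0-CD and 39 to 40 in F0-LPD (log2 fold change 0.84 ± 0.27, adjusted p = 0.166), so that introns held 23.5% and 32.4% of its reads on the CD and 11.4% and 8.32% on the LPD. For Lipe and G0s2 no intron read was counted as unique in any library, and their intron values cannot be separated from those of the genes in which they lie.

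**Figure D4:**
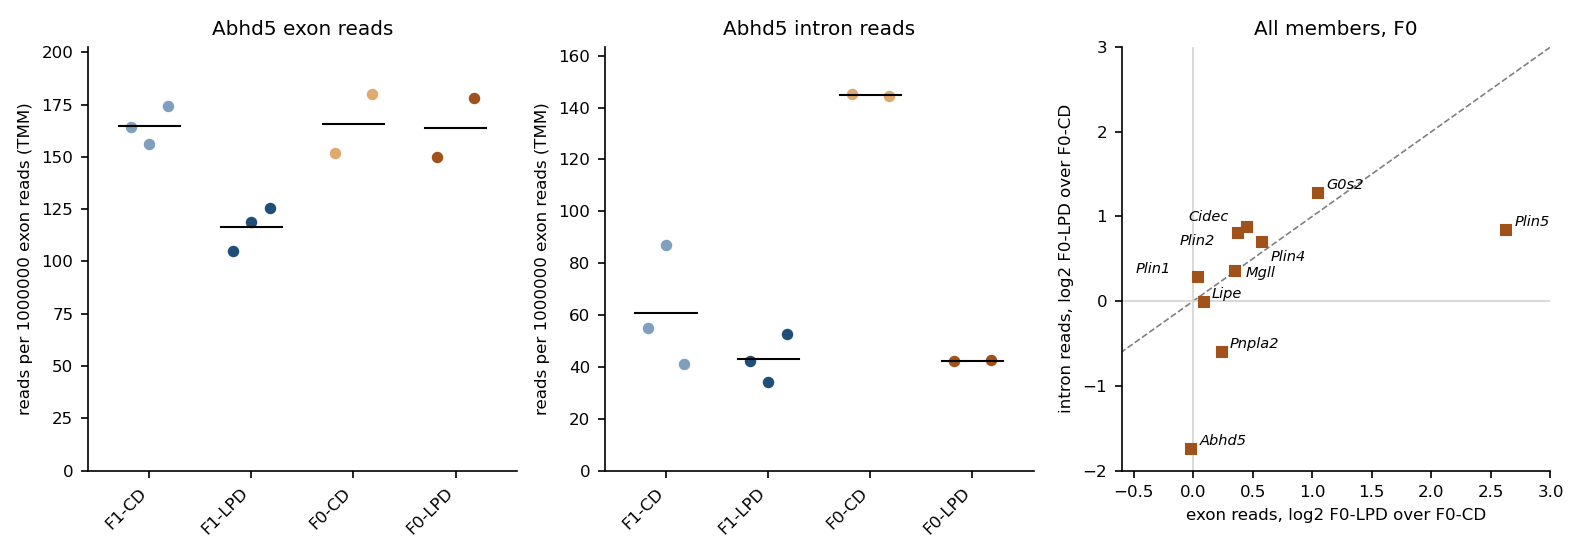
Left and middle, exon and intron reads of Abhd5 per 1000000 exon reads in the 4 groups, 1 point per library with the group mean; right, the log2 fold change of intron against exon reads in F0 for the 10 genes, with the line of equal change dashed. Abhd5 lies at -0.02 on the exon axis and -1.75 on the intron axis, and Plin5 at 2.63 and 0.84.

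Around the members, 64 genes in 4 lists of other droplet proteins, other hydrolases and handlers of their products, hormonal control through cyclic AMP, and transcription factors were examined, of which 60 were tested in F1 and 61 in F0. In F1, 1 of the 60 passed, a share of 1.67% beside 1.17% of all genes. This was Npr1, the receptor through which natriuretic peptides stimulate lipolysis by cyclic GMP, at 67.5 to 78.1 CPM in F1-CD and 44.1 to 51.0 CPM in F1-LPD (log2 fold change -0.58 ± 0.10, adjusted p = 0.0216). Of the 21 genes of hormonal control it was the only one to pass, and the beta-adrenergic receptor of fat cells, Adrb3, was at 164 and 144 CPM on average in the 2 groups. The medians of the 4 lists in F1 were -0.02, 0.05, 0.05 and 0.15 on the log2 scale, in the order above, beside 0.01 for all genes.

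In F0, 9 of the 61 passed, 14.8% beside 2.50% of all genes, 7 higher and 2 lower in LPD-fed males. The lists were chosen with earlier results of these data known, so setting these shares side by side is no test of the lists. With all 4 groups in one fit, 2 list genes passed, where 1.16% of all genes did. Of the droplet proteins, Cidea, the relative of Cidec found in brown and beige fat, rose by 1.62 ± 0.27 on the log2 scale (adjusted p = 0.0233) and Hilpda, like G0S2 an inhibitor of PNPLA2, by 1.41 ± 0.28 (adjusted p = 0.0400). Hilpda was low, at 2.20 and 2.69 CPM on the CD and 5.67 and 7.37 CPM on the LPD. Fitm1, a lipid binding protein of muscle, fell (adjusted p = 0.0436), from 2.24 and 2.60 CPM to 0.117 and 0.525 CPM, the former of the LPD values below the floor, so that the size of its fall is not determined. Aqp7, the channel by which glycerol leaves the fat cell, rose by 0.77 ± 0.17 (adjusted p = 0.0496), and Gk, the kinase that takes glycerol back, by 1.37 ± 0.18 (adjusted p = 0.0113).

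Of the genes of hormonal control in F0, the adenylyl cyclases Adcy5 and Adcy3, which make cyclic AMP, rose by 1.92 ± 0.22 (adjusted p = 0.00627) and 0.45 ± 0.08 (adjusted p = 0.0345) on the log2 scale, and 19 others did not pass. Adcy5 was at 94.7 and 102 CPM on the CD and 276 and 472 CPM on the LPD. Among the transcription factors, Ppara, which switches on genes of fatty acid oxidation, rose by 1.12 ± 0.19 (adjusted p = 0.0249), and Irf4, known to raise Pnpla2 and Lipe in fasting, fell by 0.68 ± 0.10 (adjusted p = 0.0164). The medians of the 4 lists in F0 were -0.03, 0.13, 0.08 and -0.01, beside 0.00 for all genes. The interaction passed for 2 of the 62 list genes tested, 3.23% beside 1.25% of all genes. These were Adcy5 (-2.35 ± 0.37, adjusted p = 0.0110) and Irf4 (0.97 ± 0.15, adjusted p = 0.00965).

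Markers of other cell types moved with the diets. In F0-LPD, 7 of 8 brown and beige fat markers had positive log2 fold changes and 5 passed (Ucp1, Cidea, Cox8b, Cox7a1 and Elovl3), with a median of 1.34. Their summed level was 171 to 302 CPM in F0-CD and 693 to 794 CPM in F0-LPD, and Ucp1, which makes brown fat produce heat, was at 13.5 and 58.5 CPM on the CD and at 238 and 290 CPM on the LPD. All 12 skeletal muscle markers were lower in F0-LPD and 7 passed, with a summed level of 1589 to 2462 CPM in F0-CD and 774 to 1061 CPM in F0-LPD. Myh7 was at 17.6 and 22.5 CPM on the CD and at 0.234 and 0.525 CPM on the LPD, the former of these below the floor. In F0, Plin5 and G0s2 moved with the brown and beige markers and against the muscle markers, and the part of either in their change was not tested. In F1, 6 of the 8 had negative log2 fold changes, with a median of -0.24, and 1 passed, Ppargc1a, which was higher after the paternal LPD. The brown and beige sum of the offspring was 773 to 2298 CPM, highest in F1-LPD replicate 1. Of the 6 offspring, this library also had the highest Plin5, 62.2 CPM, and the lowest G0s2, 142 CPM.

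In F1-LPD, all 8 macrophage markers were lower and 5 passed (Adgre1, Csf1r, Lyz2, Cd163 and C1qa), with a summed level of 723 to 833 CPM against 1045 to 1281 CPM in F1-CD. Abhd5 fell in the same libraries. All 5 endothelial and 5 of 6 progenitor markers also had negative log2 fold changes in F1, with medians of -0.37 and -0.31, as did the 4 epithelial markers tested. All 7 lymphocyte markers had positive ones. The part of macrophages or of any other cell type in the change of Abhd5 was not tested. The 10 adipocyte markers had a median of 0.17 on the log2 scale in F1, with none past the test, and -0.07 in F0, where Retn passed, lower. In F0, Cd163 was the macrophage marker that passed, also lower. Epithelial markers summed to 10.1 to 14.0 CPM in F1-CD and 1.53 to 4.88 CPM in F1-LPD, with Krt8 and Krt18 past the test. Lymphocyte, endothelial and progenitor markers, 18 genes, had none past the test in F1, and in F0 Ms4a1 was higher and Dcn lower.

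**Figure D5:**
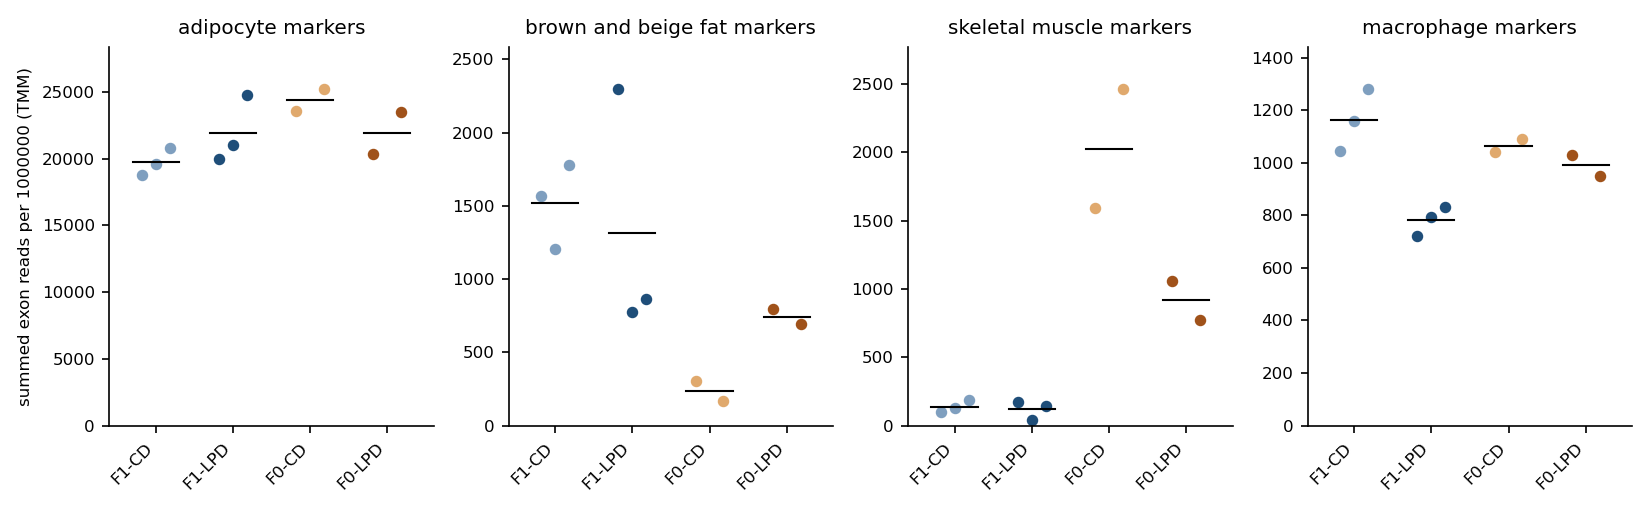
Summed exon reads per 1000000 (TMM-scaled) of the adipocyte, brown and beige fat, skeletal muscle and macrophage marker lists in the 4 groups, 1 point per library with the group mean. The F0-LPD libraries lie above F0-CD in the brown and beige sum and below it in the muscle sum, and the F1-LPD libraries lie below F1-CD in the macrophage sum.

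For each member the 2 genes with the most similar profile over the 10 libraries were looked up among 13860 others with at least 1 CPM on average. Likeness is the root mean square difference of the log2(CPM + 0.5) values, each centred on the mean of its gene, and smaller is closer. Pnpla2 was nearest to Fabp4, the fatty acid carrier of fat cells (0.0671), and Ost4 (0.0777), Lipe to Zfp36 (0.0630) and Arhgef28 (0.0667), and Mgll to Bcap31 (0.0530) and Ube2o (0.0533). Abhd5 was nearest to Trf, the iron carrier transferrin (0.0756), and P2ry14 (0.0802). Plin5, whose own profile varied most (root mean square 1.11), was nearest to Otop1 (0.312) and Cpt1b (0.382), the latter the muscle form of the enzyme that takes fatty acids into mitochondria. G0s2 was nearest to Chek1 (0.231) and Wdr89 (0.251), against 0.438 for its own variation. Plin1 was nearest to Hivep2 (0.0483) and Apc (0.0516), Plin2 to Ccdc51 (0.111) and Grk5 (0.120), Plin4 to Fsd2 (0.142) and Fzd4 (0.165), and Cidec to Sulf2 (0.137) and Svep1 (0.146).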

How the data were processed

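Total RNA of iWAT was depleted of rRNA and made into directional paired-end libraries, which were aligned by the authors with CLC Genomics Workbench against mm10. The deposited counts give, for each gene, exon and intron reads, total and unique, without normalization; whether strand was used in counting is not given in the sources used here. The deposited RPKM values are exon reads scaled for length and library size, and served for comparisons between genes. Their scale differs from that of the CPM, since the median of all genes in F1 was -0.147 by limma on log2(RPKM + 0.1), against 0.007 by edgeR. RPKM levels of F1-CD and F1-LPD are therefore not to be set against each other. The deposited TPM values were not used. Samples were grouped by their labels.

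Total exon reads were tested in R 4.3.3 with edgeR 4.0.16 (filterByExpr, TMM, quasi-likelihood F test, two-sided, Benjamini-Hochberg adjustment over all genes tested, threshold 0.05), each generation alone and the interaction in all 10 libraries, without a replicate block. The script was tested on simulated data. Printed CPM values are scaled over all 10 libraries, while the fold changes come from these fits. The exact permutation tests were run on log2(CPM + 0.5) in scipy 1.17.1. Alternatives were DESeq2 1.42.0 and its size factors, no filter, at least 10 counts in every library, unique exon reads, reads on the whole gene, limma 3.58.1 on log2(RPKM + 0.1) or log2(RPKM + 1), the replicate block, all 4 groups in one fit, and each library left out. Replicate numbers come from the labels; deviations of same-numbered libraries from their group means correlated at -0.000158 to 0.0389 in F1 and 0.0487 in F0, so the numbers were not taken to pair the mice. No library duplicated another. Where nothing but the library separates mice of a group, p-values measure the spread between these libraries.

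The members, the 4 pathway lists and the 8 marker lists were chosen with earlier results of these data known. The genes named are the members, the list genes past the threshold, defining markers, and for each member the 2 genes with the smallest root mean square difference. Cavin1 was matched by its identifier, and Ldaf1 was not matched.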

Additional observations from a re-analysis of the deposited data

Results flagged for a closer look

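The diet difference in offspring and that in fed males differed by the interaction test for 1 of 10 members. Of the surrounding pathway, 2 of 62 genes tested passed, where 1.25% of all 15111 genes did. For Plin5 the F1 difference minus the F0 difference was -2.56 on the log2 scale (adjusted p = 0.00884), with the F0-CD libraries at 4.80 and 8.73 CPM and all others at 32.7 to 62.2 CPM. For Adcy5 it was -2.35 (adjusted p = 0.0110), with 94.7 and 102 CPM in F0-CD and 276 and 472 CPM in F0-LPD. Its F1 groups overlapped, at 91.9 to 177 CPM in F1-CD and 82.5 to 108 CPM in F1-LPD (edgeR log2 fold change -0.42, adjusted p = 0.377). For Irf4 it was 0.97 (adjusted p = 0.00965), with 61.3 and 70.9 CPM in F0-CD, 41.1 and 41.5 CPM in F0-LPD, and 32.3 to 46.2 CPM in the 6 offspring. Generation, age and the set of libraries cannot be told apart in these differences. Single libraries were not tested as outliers within groups of 2 and 3 mice, but F1-CD replicate 3 was farther from its group mates (chi-square per degree of freedom 11.9 and 12.4) than they were from each other (4.45).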

How the results depend on the processing

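Groups of 2 and 3 mice limit every result, and at 48 to 430 reads Plin5 has the widest counting error of the members. In F1, 1 member passed; DESeq2 gave 2 and no filter 3, total gene reads, limma on RPKM with 0.1 or 1 added and intron reads gave 0, and the omission of single libraries gave 0 to 3. In F0, 2 members passed. No filter gave 6, the replicate block 4, limma on RPKM 1 with either pseudocount, and intron reads 5. Omitting an F0 library leaves 1 mouse in a group, so no count of calls is given for it here. The member counts moved beside those of all genes, of which 2.50% passed in F0, 6.09% without a filter, 9.54% with the replicate block, 0.562% and 0.322% by limma on RPKM with 0.1 and 1 added, and 1.16% with all 4 groups in one fit. Total gene reads gave 1.77% in F0 and intron reads 3.48%. In F1 the shares were 1.17%, 2.97% in DESeq2, 3.59% without a filter, and 0.126% to 3.56% under omissions. There, unique exon reads gave 1.80%, total gene reads 0.745%, intron reads 0.424%, and all 4 groups in one fit 2.24%. By limma on RPKM with 0.1 and 1 added the F1 shares were 0.833% and 0.989%. The interaction passed for 1 member. DESeq2 gave 3, no filter 4, unique exon reads 3, total gene reads 2, the replicate block 2, and omissions of an F1 library 1 to 2. Of all genes 1.25% passed, 2.53% in DESeq2, 3.78% without a filter and 1.78% on unique exon reads. On total gene reads 1.19% passed, with the replicate block 1.77%, and without an F1 library 0.410% to 2.61%. Over omissions of any library the interaction of Plin5 was -3.02 to -2.17 on the log2 scale. Of the pathway genes 1 passed in F1, against 3 in DESeq2, 9 without a filter, 2 on unique exon reads, on total gene reads and with all 4 groups in one fit, and 0 to 6 under omissions. In F0, 9 passed, against 20 without a filter, 4 on total gene reads, 2 and 1 by limma on RPKM with 0.1 and 1 added, 21 with the replicate block, 2 with all 4 groups, and 4 to 10 under omissions, and the pathway counts are to be read beside the same shares of all genes.

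The replicate block changed no call of a member in F1, and added Plin2 and Plin4 in F0 and G0s2 in the interaction. limma on log2(RPKM + 0.1) moved the median of all genes to -0.147 in F1. Of 520 values of single members under the alternatives, 445 kept direction and call, 14 lost the call, 32 gained it and 29 changed sign; all but one of the latter, Pnpla2 on introns in F0, had adjusted p-values over the threshold on both sides. On intron reads, signs changed in F1 for Pnpla2 (0.48) and Cidec (0.14), in F0 for Pnpla2 (-0.60) and Lipe (-0.013), and in the interaction for Pnpla2 (1.08), Abhd5 (1.17) and Plin1 (-0.17). On RPKM with 0.1 and 1 added they changed for Plin5 in F1 (-0.11 and -0.10), Plin1 in F0 (-0.019 with both) and Lipe in the interaction (-0.0010 and -0.0011), and on total gene reads for Abhd5 in the interaction (0.068). Omissions of a library spanned 0 in F1 for Pnpla2 (-0.15 to 0.0079), G0s2 (-0.23 to 0.10), Plin5 (-0.17 to 0.23) and Cidec (-0.22 to 0.14), in F0 for Lipe (-0.061 to 0.22), Abhd5 (-0.15 to 0.11) and Plin1 (-0.077 to 0.15), and in the interaction for Lipe (-0.045 to 0.24) and Plin4 (-0.36 to 0.17). The cause of these changes was not tested.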
